A study of Homo sapiens with 8 samples.

Results

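A set of 100 genes was selected on the direction of their expression in 4 comparisons of ovarian cancer cells in which MGP had been manipulated. In all 4 line-by-culture pairs each member had a log2 fold change (log2FC) of the same sign that reached 1 in size, and 60 genes were higher and 40 lower in the manipulated cells. The log2FC was taken on the normalized read count + 1, manipulated against control. A gene could enter only if at least 1 library of each pair held at least 50 raw counts, which left 11170 of 20338 genes. The values of these 4 comparisons therefore chose the members and are given below as a description, with no test. A further 259 genes passed the size and sign limits and fell under the count limit.

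The study sequenced RNA from OVCAR3 and COV318, established epithelial ovarian cancer lines that the labels trace to ascites, with 1 library for each of 8 conditions. OVCAR3-MGPKO cells came from clones made by CRISPR-Cas9 with a pair of guides to exon 1 of MGP, and OVCAR3-CTR are their controls. COV318-MGP cells carry a lentivirus with MGP cDNA, and COV318-CTR cells carry the empty vector, both after selection with puromycin. Each was sequenced as adherent bulk cells and as OCSC, the ovarian cancer stem cells enriched as spheres in serum-free medium with growth factors. The OVCAR3 libraries are labelled passage 4 and the COV318 libraries passage 18. Which OVCAR3 clone was sequenced is not given in the sources used here. With 1 library per condition there is no replicate check, so a manipulation and the library that carries it cannot be told apart, and every interval covers counting error only.

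MGP, the manipulated gene, had 0 counts in OVCAR3-CTR bulk, 0 in OVCAR3-MGPKO bulk, 1 in OVCAR3-CTR OCSC and 2 in OVCAR3-MGPKO OCSC. The knock-out could therefore not be checked from these reads, since the OVCAR3 controls held at most 1 count themselves. The paper reports MGP protein in OVCAR3 cells and a check of the knock-out by RT-qPCR, immunofluorescence and western blot. Why the OVCAR3 controls held almost no MGP reads was not tested. In COV318, MGP had 1 count in CTR bulk, 40393 in MGP bulk, 0 in CTR OCSC and 28694 in MGP OCSC, as the labels state. Total counts on genes were 12294591 to 37393919 per library. The 2 COV318-MGP libraries stood apart from the other 6. Of 11 epithelial ovarian carcinoma markers (KRT7, KRT8, KRT18, KRT19, EPCAM, CDH1, PAX8, MUC16, WFDC2, MSLN and SOX17), all 11 had at least 50 counts in the 4 OVCAR3 libraries and in the 2 COV318-CTR libraries, whereas 3 did in each COV318-MGP library and 7 were at 3 counts or fewer. The summed normalized count of these markers was 142000 to 283000 in OVCAR3, 50700 and 19800 in COV318-CTR bulk and OCSC, and 1980 and 8470 in COV318-MGP bulk and OCSC. At 0 counts were 4 of the 11 in COV318-MGP bulk and 5 in OCSC. PAX8, a factor of the Mullerian lineage, had 6778 and 3342 counts in COV318-CTR bulk and OCSC and 0 in both COV318-MGP libraries, and KRT7 had 19478 and 614 against 0 and 0. The 3 markers that kept at least 50 counts were KRT8, KRT18 and CDH1. In COV318 bulk and OCSC, KRT8 had 1197 and 106 counts in the controls against 556 and 983. KRT18 had 36058 and 2396 against 2573 and 4810, and CDH1 505 and 248 against 417 and 99. Not all epithelial transcripts were thus lost. The values of most of the 11 markers go against the labels of the COV318-MGP libraries as epithelial ovarian cells, so that the identity of their cells is in doubt. An effect of MGP and a difference in the cells themselves cannot be told apart in any COV318 log2FC below. Summed mesothelial markers were 615 to 2560 in OVCAR3, 9730 and 4720 in COV318-CTR and 483 and 283 in COV318-MGP. Fibroblast markers summed to 219 to 583, 5800 and 596, and 686 and 1080 in the same order, endothelial markers to 142 to 246, 1070 and 1260, and 20.3 and 20.0, and leukocyte markers to 58.6 to 102, 14.0 and 40.1, and 63.2 and 109. The part of these differences in the COV318 values of the members was not tested, and the result from the OVCAR3 log2FC alone is given beside them.

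Matrix Gla protein, the product of MGP, is a small secreted protein of the extracellular matrix that is modified with the help of vitamin K and is best known as an inhibitor of calcification. It also binds bone morphogenetic proteins. OVCAR3 cells had their MGP gene cut and COV318 cells received extra MGP, so by design the manipulations are opposite with respect to MGP. In the reads a difference in MGP was seen in COV318 only, since no OVCAR3 library held over 2 counts of it. The 100 genes are those that differed in the same direction from their own control in both lines and in both cultures.

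Of the 11170 genes, 0.537% were higher in all 4 comparisons and 0.358% were lower, which are the members themselves. Taken singly, the comparisons differed in how many genes passed a log2FC of 1. In OVCAR3 bulk 7.28% of genes were higher and 5.19% lower, and in OVCAR3 OCSC 2.53% were higher and 2.71% lower. In COV318 bulk 16.3% were higher and 19.7% lower, and in COV318 OCSC 20.6% were higher and 20.2% lower. OVCAR3 OCSC was accordingly the comparison in which most members came closest to the limit. It held the smallest of the 4 changes for 43 of the 60 higher genes and for 26 of the 40 lower genes. The median log2FC of the higher members was 2.51 in OVCAR3 bulk, 1.59 in OVCAR3 OCSC, 4.43 in COV318 bulk and 4.51 in COV318 OCSC. For the lower members it was -1.89, -1.40, -3.70 and -3.46 in the same order, and over all 11170 genes it was -0.02, -0.06, -0.06 and 0.02. The change was larger in COV318 than in OVCAR3 for 51 higher members in bulk and 56 in OCSC, and for 32 lower members in bulk and 39 in OCSC. With counts scaled to the library total in place of the median of ratios, which moved the median log2FC of all genes by up to 0.296, the split was 73 higher and 25 lower genes. In bulk RNA of this kind, a lower level per cell and fewer cells that hold the transcript cannot be told apart.

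**Figure D1:**
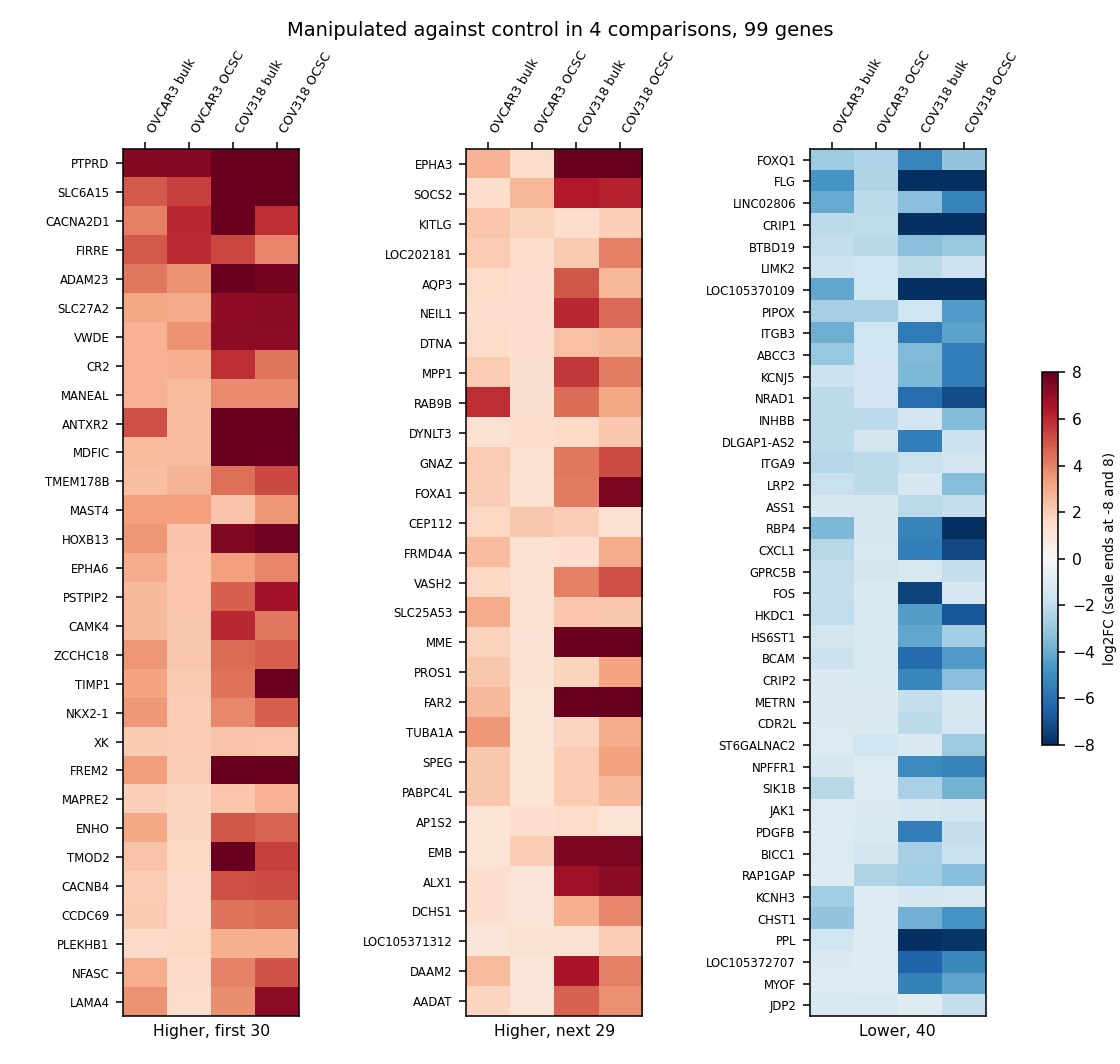
Heat map of the log2FC of 99 of the 100 genes (rows, in the order of the smallest of their 4 values) in the 4 comparisons of manipulated against control cells (columns). Red is higher and blue lower in the manipulated library, the colour scale ends at -8 and 8, and the OVCAR3 OCSC column is the palest, with medians of 1.59 and -1.40.

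Genes were next chosen by the OVCAR3 log2FC alone, and their direction was then read in COV318. The shares read there rest on the COV318-MGP libraries, whose cells are in doubt. In both OVCAR3 cultures 124 genes were higher, 1.11% of all genes, and 95 were lower, 0.85%. Of the 124, 60 (48.4%) were also higher in both COV318 cultures and are the higher members, while 29 (23.4%) were lower in both. Of the 95, 40 (42.1%) were lower in both COV318 cultures and 17 (17.9%) were higher in both. Over all genes, 11.5% were higher and 13.1% were lower in both COV318 cultures. Seen from COV318, the members are 4.68% of its 1282 genes higher in both cultures and 2.73% of its 1463 lower genes, while the genes with opposite signs in OVCAR3 are 1.33% and 1.98% of the same lists. The pairs of each line share no library with the other line, although the count limit and the size factors used all libraries. The members were nevertheless selected on all 4 comparisons, and the shares are given with no test.

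Counting every gene past 1 in size in all 4 comparisons gave 178 genes, whatever their signs. The 2 patterns of like signs held 60 and 40 of them. The patterns that were the same in both cultures of a line and opposite between the lines held 46 genes, with 29 genes up after the knock-out and down after overexpression and 17 the other way. The other 32 genes changed sign between cultures of at least 1 line, most often 10 genes that were higher in OVCAR3 bulk alone. No gene was lower in COV318 bulk alone or in COV318 OCSC alone while being higher in the other 3 comparisons.

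**Figure D2:**
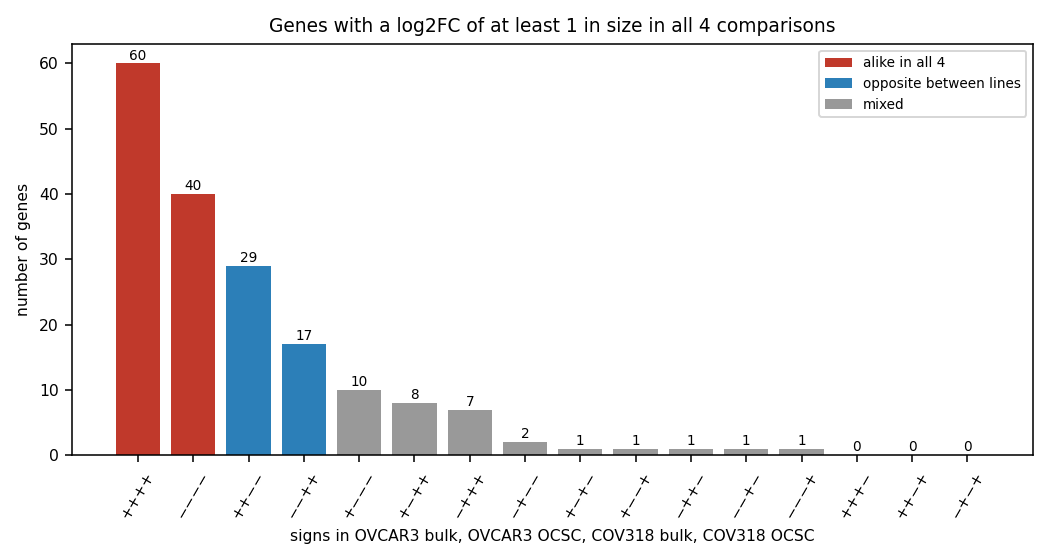
Number of genes (vertical axis) in each of the 16 patterns of signs in OVCAR3 bulk, OVCAR3 OCSC, COV318 bulk and COV318 OCSC (horizontal axis, in this order), among genes whose log2FC reached 1 in size in all 4. Red bars are the 60 higher and 40 lower genes described here, blue bars the 29 and 17 genes with opposite signs between the lines, and grey bars the 32 others.

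In the gene descriptions that follow, counts are raw reads given as control to manipulated, in the fixed order OVCAR3 bulk, OVCAR3 OCSC, COV318 bulk and COV318 OCSC, and the 4 log2FC follow the same order. The 15 genes of each direction with the largest value of their smallest log2FC, and AADAT, are given in full. They are grouped by what their products do, a grouping made with the values known. The genes were selected on these same pairs, so a gap between control and manipulated reads follows in part from the rule and is no result. Raw reads are also not on a common scale across libraries of different depth. Where a control held 0 counts, the log2FC depends on the 1 that was added, and a fold against 3 counts, the floor used for a library at 0, is given as a lower bound.

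Of the higher genes, receptors and adhesion proteins of the cell surface are given first. PTPRD, a receptor-type tyrosine phosphatase that is also a synaptic adhesion molecule, had 0 to 134, 1 to 346, 0 to 1569 and 1 to 543 reads. The controls of both lines thus held at most 1 read in any culture, while the manipulated libraries held 134 or more. Its log2FC were 7.28, 7.29, 9.75 and 8.29, which is at least 33.3-fold in OVCAR3 bulk and at least 534-fold in COV318 bulk, with log2 intervals of 5.85 to 13.65 in OVCAR3 OCSC and 6.55 to 14.34 in COV318 OCSC. ADAM23, a member of the ADAM family without protease activity that binds integrins, had 3 to 89, 10 to 141, 2 to 1219 and 1 to 345 reads and log2FC of 4.20, 3.59, 8.34 and 7.64. Its controls held 10 reads or fewer, and the log2 interval was 2.87 to 6.77 in OVCAR3 bulk, 7.43 to 12.33 in COV318 bulk and 5.89 to 13.68 in COV318 OCSC.

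CR2, the complement receptor known as CD21 on B cells, had 6 to 60, 12 to 101, 2 to 221 and 2 to 54 reads and log2FC of 2.77, 2.87, 5.88 and 4.30. No control held over 12 reads of it, and its manipulated libraries held 54 to 221, so it stayed a weakly expressed gene. The log2 intervals were 4.95 to 9.87 and 2.78 to 7.78 in COV318 bulk and OCSC. ANTXR2, a receptor for anthrax toxin that binds collagen and laminin, had 1 to 79, 21 to 132, 0 to 626 and 0 to 292 reads. Its log2FC were 5.17, 2.50, 8.43 and 8.71, at least 213-fold in COV318 bulk and at least 93.8-fold in COV318 OCSC, with a log2 interval of 3.36 to 11.20 in OVCAR3 bulk. EPHA6, an Eph receptor tyrosine kinase, had 5 to 59, 32 to 165, 91 to 889 and 29 to 460 reads and log2FC of 2.98, 2.23, 3.29 and 3.90. Unlike the genes before it, EPHA6 was read in the COV318 controls as well, at 91 and 29 counts.

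The related receptor EPHA3 was also higher, with 16 to 156, 771 to 2262, 0 to 1668 and 0 to 187 reads and log2FC of 2.81, 1.46, 9.84 and 8.07. Its OVCAR3 OCSC control already held 771 reads, and the COV318 controls held 0, so that it was at least 568-fold higher in COV318 bulk and at least 60-fold in COV318 OCSC. The other surface and matrix members that were higher were KITLG, the ligand of the KIT receptor, NFASC, the adhesion protein neurofascin, DCHS1, an atypical cadherin, EMB, an immunoglobulin-like glycoprotein, MME, the membrane peptidase neprilysin, XK, a membrane protein of red cells and other tissues, FREM2, a matrix protein of basement membranes, LAMA4, a laminin chain, TIMP1, an inhibitor of matrix metalloproteinases, PROS1, the vitamin K-dependent protein S, and ENHO, which encodes the secreted peptide adropin. FREM2 had 11 to 161, 152 to 651, 1 to 4680 and 1 to 1736 reads and log2FC of 3.37, 2.00, 10.71 and 9.97, so that both COV318 controls held 1 read, with log2 intervals of 9.74 to 17.53 and 8.23 to 16.01. TIMP1 had 14 to 178, 65 to 295, 73 to 1506 and 7 to 1849 reads and log2FC of 3.19, 2.07, 4.36 and 7.86. KITLG, in contrast, was read at 22 counts or more in every library, 22 to 138, 247 to 966, 730 to 1866 and 183 to 715, with log2FC of 2.19, 1.87, 1.38 and 1.91.

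Transporters and channels formed another group of higher genes. SLC6A15, a sodium-dependent carrier of neutral amino acids that is chiefly known from brain, had 16 to 673, 6 to 327, 26 to 6552 and 0 to 761 reads. Every control held 26 reads or fewer and every manipulated library held 327 or more. Its log2FC were 4.91, 5.44, 7.91 and 10.09, and in COV318 OCSC it was at least 244-fold higher. CACNA2D1, the auxiliary alpha-2-delta subunit of voltage-gated calcium channels, had 5 to 123, 3 to 286, 3 to 1508 and 8 to 543 reads and log2FC of 4.03, 6.05, 8.31 and 5.92. Its controls held 3 to 8 reads, with log2 intervals of 4.92 to 8.77 in OVCAR3 OCSC and 7.45 to 11.28 in COV318 bulk. CACNB4, the beta-4 subunit of the same channels, was also a member, with log2FC of 2.02, 1.55, 5.14 and 5.21. SLC27A2, a fatty acid transport protein that activates very long-chain fatty acids, had 4 to 52, 37 to 337, 3 to 652 and 0 to 103 reads and log2FC of 3.08, 3.06, 7.10 and 7.21. It was at least 33.1-fold higher in COV318 OCSC, with a log2 interval of 6.24 to 10.08 in COV318 bulk. The water and glycerol channel AQP3 and the mitochondrial carrier family member SLC25A53 were higher as well, with a smallest log2FC of 1.36 and 1.21.

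The promoters of PTPRD and CACNA2D1 are printed as those of the 2 highest-ranked protein-coding members with a promoter in the RefSeq table, 250 bases before to 50 after the start on GRCh38.p14, each on the minus strand of the gene, at chr9:10612953-10613252 and chr7:82443907-82444206. Capitals mark letters of the motifs counted further down, here the GC box GGGCGG, the E-box CACCTG and the hypoxia element core ACGTG on either strand.
PTPRD: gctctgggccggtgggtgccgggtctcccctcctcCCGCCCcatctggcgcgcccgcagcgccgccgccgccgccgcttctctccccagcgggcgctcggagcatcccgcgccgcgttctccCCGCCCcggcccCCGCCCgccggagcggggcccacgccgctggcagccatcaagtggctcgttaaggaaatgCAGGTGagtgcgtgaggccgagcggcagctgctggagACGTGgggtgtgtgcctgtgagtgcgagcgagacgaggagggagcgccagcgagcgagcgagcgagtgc
CACNA2D1: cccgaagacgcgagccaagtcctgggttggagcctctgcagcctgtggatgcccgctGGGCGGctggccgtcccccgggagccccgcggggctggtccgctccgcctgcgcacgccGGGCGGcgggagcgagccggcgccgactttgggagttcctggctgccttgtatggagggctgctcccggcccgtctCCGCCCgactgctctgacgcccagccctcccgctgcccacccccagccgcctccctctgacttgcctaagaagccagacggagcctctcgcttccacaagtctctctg
Both hold several GC boxes, and their GC content was 75.3% and 72.3%, against a median of 65.7% over the 9118 promoters of tested genes. The ratio of observed to expected CpG was 0.94 for PTPRD and 0.749 for CACNA2D1, against a median of 0.854.

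Regulators of transcription were the next group. HOXB13, a homeobox factor of the posterior body and prostate, had 12 to 187, 29 to 153, 2 to 634 and 0 to 155 reads and log2FC of 3.47, 2.26, 7.40 and 7.80. It was at least 49.8-fold higher in COV318 OCSC, with a log2 interval of 6.48 to 11.39 in COV318 bulk. MDFIC, which binds and holds back MyoD family factors, had 28 to 223, 58 to 354, 1 to 1235 and 1 to 393 reads and log2FC of 2.54, 2.49, 8.79 and 7.82. Its COV318 controls held 1 read each, with log2 intervals of 7.82 to 15.61 and 6.08 to 13.87, whereas its OVCAR3 controls held 28 and 58. Another 3 tissue-defining factors outside the first 15 were members too, namely NKX2-1 of lung and thyroid, FOXA1, a pioneer factor of endoderm, prostate and breast, and ALX1 of craniofacial mesenchyme. NKX2-1 had 4 to 68, 40 to 182, 9 to 151 and 3 to 102 reads, FOXA1 9 to 50, 54 to 136, 15 to 290 and 0 to 131 and ALX1 31 to 107, 85 to 190, 1 to 307 and 0 to 105, and none of these factors passed 307 reads in any library.

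FIRRE, a long non-coding RNA of the X chromosome that shapes nuclear architecture, was the highest-ranked member that encodes no protein. It had 2 to 105, 1 to 139, 30 to 1285 and 13 to 215 reads and log2FC of 4.90, 5.99, 5.37 and 3.93, with log2 intervals of 3.40 to 8.35 and 4.52 to 12.34 in OVCAR3, where its controls held 2 reads and 1 read. Its controls in COV318 held 30 and 13 reads and the manipulated libraries of both lines 105 to 1285, a gap that the selection favours. LOC202181, annotated as a transcribed pseudogene, and LOC105371312, which has no position in the annotation used, were the other higher members without a named function, with a smallest log2FC of 1.38 and 1.04.

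**Figure D3:**
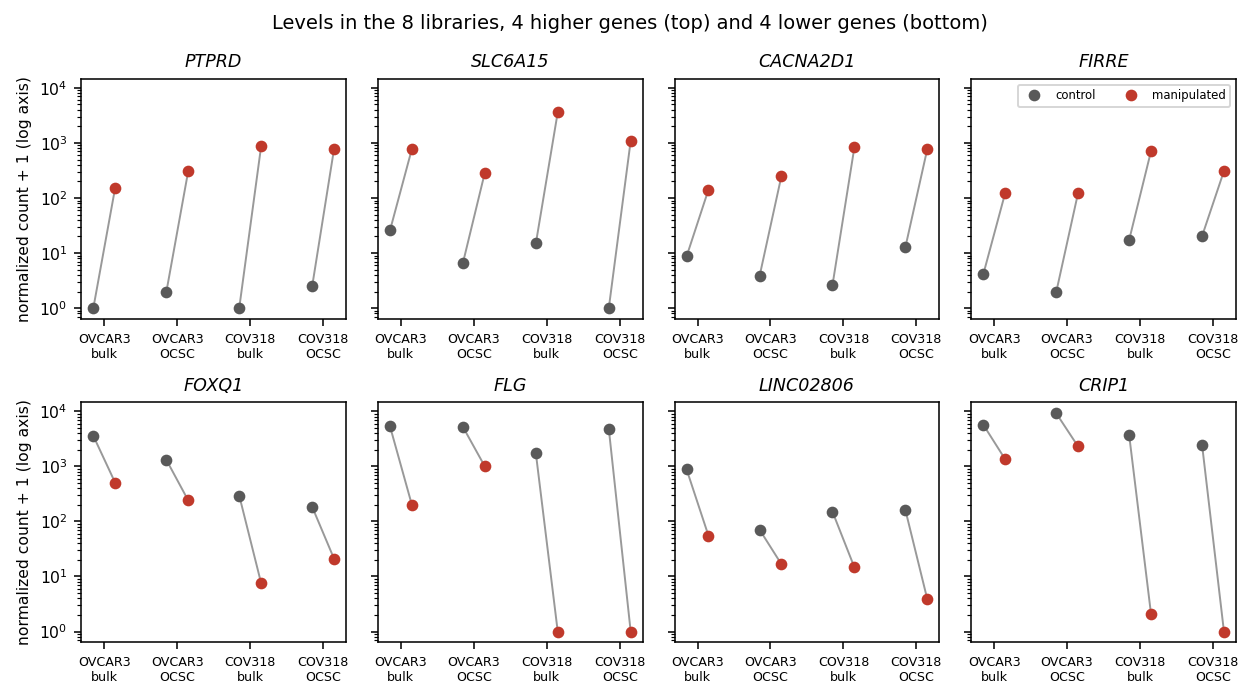
Normalized count + 1 on a log axis (vertical) in the control (grey) and manipulated (red) library of each line and culture (horizontal) for the 4 highest-ranked genes of each direction. Each point is 1 library and lines join the pairs. The red point is above its grey partner in every pair of the top row and under it in every pair of the bottom row, and points at the foot of the axis are libraries with 0 reads.

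Signalling and cytoskeletal genes made up most of the other higher members. MAST4, a serine/threonine kinase associated with microtubules, had 7 to 97, 20 to 216, 105 to 511 and 41 to 493 reads and log2FC of 3.25, 3.27, 2.29 and 3.51. It was among the few higher genes whose smallest change was in COV318, at 2.29 in bulk. TMEM178B, a transmembrane protein, had 78 to 564, 50 to 359, 41 to 882 and 8 to 356 reads and log2FC of 2.42, 2.72, 4.40 and 5.31. MANEAL, a relative of the Golgi endomannosidase, had 13 to 123, 36 to 226, 101 to 1393 and 33 to 478 reads and log2FC of 2.76, 2.52, 3.79 and 3.78. VWDE, a secreted protein with von Willebrand factor D and EGF domains, had 11 to 107, 16 to 220, 6 to 1093 and 2 to 399 reads and log2FC of 2.79, 3.60, 7.15 and 7.17, with a log2 interval of 5.72 to 10.64 in COV318 OCSC. For these 4 genes, no control held more than 105 reads, and each manipulated library held 97 or more.

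The calcium-dependent kinase CAMK4, the G protein subunit GNAZ, the cytokine signalling suppressor SOCS2, the Wnt and actin regulator DAAM2, the kinase SPEG of striated muscle, the membrane scaffold MPP1, the dystrobrevin DTNA, the FERM domain protein FRMD4A and the F-BAR protein PSTPIP2 were also higher. Of the cytoskeleton, so were the tubulin TUBA1A, the tubulin carboxypeptidase VASH2, the microtubule end-binding MAPRE2, the tropomodulin TMOD2, the dynein light chain DYNLT3 and the centrosomal CEP112. Vesicle transport was represented by RAB9B and the adaptor subunit AP1S2, metabolism by the fatty acyl-CoA reductase FAR2, DNA repair by the glycosylase NEIL1, and RNA handling by PABPC4L. CCDC69, PLEKHB1 and ZCCHC18 were higher too. TUBA1A had the most reads of these, 112 to 1691, 918 to 2091, 1950 to 6178 and 219 to 1821, with log2FC of 3.48, 1.09, 1.69 and 2.9979. It belongs to a family of near-identical tubulin genes, and reads shared with its relatives make its counts uncertain. RAB9B had 0 to 52, 42 to 110, 26 to 597 and 13 to 121 reads and was at least 12.9-fold higher in OVCAR3 bulk. AP1S2 lay near the limit throughout, with 31 to 91, 60 to 164, 1021 to 2814 and 622 to 1353 reads and log2FC of 1.11, 1.34, 1.49 and 1.07.

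AADAT, the mitochondrial aminotransferase that acts on kynurenine and on 2-aminoadipate of lysine breakdown, was the last of the 60 higher genes when ranked by its smallest change. It lies on the minus strand of chromosome 4 at chr4:170060222-170094292. AADAT had 29 to 128, 69 to 152, 20 to 551 and 11 to 153 reads and log2FC of 1.70, 1.03, 4.69 and 3.66, with log2 intervals of 1.13 to 2.35, 0.63 to 1.48, 4.17 to 5.54 and 2.86 to 4.78. Its controls held 11 to 69 raw reads and its manipulated libraries 128 to 551, a gap that the selection favours. The change in OVCAR3 OCSC lay just above the limit. Per kilobase of exon, its normalized count was 15.1 and 21.7 in OVCAR3-CTR bulk and OCSC, 49.5 and 44.7 in OVCAR3-MGPKO, 3.63 and 5.5 in COV318-CTR and 102 and 73.7 in COV318-MGP. In the OVCAR3 control it was thus higher than in the COV318 control, and the order was reversed after the manipulations.

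The transcription factors among the 40 lower genes are given first. FOXQ1, a forkhead factor of epithelia and the first of the lower genes by its smallest change, had 2319 to 437, 1410 to 276, 546 to 12 and 123 to 14 reads and log2FC of -2.83, -2.44, -5.28 and -3.13. Its level already differed between the control lines, with 2319 and 1410 reads in the OVCAR3 controls and 546 and 123 in those of COV318, and was lower in each manipulated library. FOS, the AP-1 subunit and immediate early gene, had 2736 to 1000, 883 to 399, 11225 to 63 and 1443 to 569 reads and log2FC of -1.88, -1.24, -7.41 and -1.40. The COV318 bulk control was the extreme, with 11225 reads against 63. JDP2, a repressor that pairs with AP-1 proteins, came last and was closest to the limit of all members, with 1495 to 858, 1488 to 675, 1360 to 665 and 304 to 84 reads and log2FC of -1.22, -1.23, -1.0001 and -1.90.

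FLG, which encodes filaggrin, a structural protein of cornified epithelium, had 3477 to 174, 5593 to 1147, 3213 to 0 and 3229 to 0 reads and log2FC of -4.74, -2.38, -10.76 and -12.23. It was at least 1050-fold lower in COV318 bulk and at least 1120-fold lower in COV318 OCSC, where COV318-MGP held 0 reads and the controls 3213 and 3229. In OVCAR3 the gene was still read after the knock-out, at 174 and 1147 counts. An antisense gene, FLG-AS1, overlaps its exons, and whether counting used the strand is not given in the sources used here. PPL, the desmosomal plakin periplakin, had 10573 to 4673, 15063 to 7946, 12544 to 7 and 2675 to 12 reads and log2FC of -1.60, -1.02, -10.44 and -7.77. Its 4 controls held 2675 to 15063 reads, and both COV318-MGP libraries 12 or fewer.

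The promoters of FOXQ1 and FLG are shown as those of the highest-ranked lower genes, from RefSeq on GRCh38.p14, at chr6:1311848-1312147 on the plus strand and chr1:152325190-152325489 on the minus strand. Capitals mark the GC box, the CCAAT box, the TATA box TATAAA and the ACGTG core on either strand.
FOXQ1: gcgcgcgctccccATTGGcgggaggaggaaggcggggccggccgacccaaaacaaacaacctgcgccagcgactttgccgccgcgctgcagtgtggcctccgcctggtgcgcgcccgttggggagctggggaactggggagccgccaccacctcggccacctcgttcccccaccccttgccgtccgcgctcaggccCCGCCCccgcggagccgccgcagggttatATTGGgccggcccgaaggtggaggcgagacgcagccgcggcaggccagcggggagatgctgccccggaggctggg
FLG: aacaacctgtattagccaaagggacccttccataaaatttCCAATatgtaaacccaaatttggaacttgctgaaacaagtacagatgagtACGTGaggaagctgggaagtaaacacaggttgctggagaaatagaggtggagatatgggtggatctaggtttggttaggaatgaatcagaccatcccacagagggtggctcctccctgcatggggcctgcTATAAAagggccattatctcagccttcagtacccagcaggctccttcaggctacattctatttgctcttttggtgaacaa
They differ in kind. FOXQ1 has a GC content of 74.7% and an observed to expected CpG ratio of 0.837, while FLG has 45.7% and 0.0644, with a TATA box and a single CpG.

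CRIP1, a small LIM domain protein, had 3720 to 1179, 9906 to 2632, 6949 to 2 and 1657 to 0 reads and log2FC of -2.08, -2.01, -10.80 and -11.27. COV318-MGP held 2 reads in bulk, with a log2 interval of -14.78 to -9.88, and 0 in OCSC, at least 573-fold lower, whereas OVCAR3-MGPKO still held 1179 and 2632. Its neighbour CRIP2, of the same family, had 7128 to 4262, 14016 to 6494, 1615 to 41 and 310 to 31 reads and log2FC of -1.17, -1.20, -5.21 and -3.35. LIMK2, the kinase that phosphorylates cofilin and so acts on actin, had 3823 to 1609, 7948 to 2751, 5518 to 1259 and 1555 to 516 reads and log2FC of -1.67, -1.62, -2.10 and -1.64. It was read at 516 counts or more in all 8 libraries, and its 4 changes spanned less than those of most members. BTBD19, a BTB domain protein, had 130 to 44, 57 to 12, 652 to 60 and 180 to 22 reads and log2FC of -1.97, -2.24, -3.37 and -3.05.

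Integrins, a laminin receptor and secreted factors were among the lower genes. ITGB3, the integrin beta-3 subunit that pairs with the alpha-V chain as a receptor of vitronectin, had 1115 to 100, 1439 to 507, 3098 to 58 and 536 to 28 reads and log2FC of -3.89, -1.60, -5.67 and -4.28. ITGA9, the alpha-9 subunit, had 1493 to 415, 1588 to 391, 716 to 204 and 233 to 87 reads and log2FC of -2.27, -2.11, -1.77 and -1.47. For both integrins each manipulated library held fewer reads than its control, by a wide margin for ITGB3 and within a narrower range of log2FC for ITGA9. INHBB, the beta-B chain of inhibins and activins, had 3803 to 1207, 4654 to 1146, 382 to 128 and 203 to 18 reads and log2FC of -2.08, -2.12, -1.53 and -3.50. BCAM, a laminin receptor of epithelia, was lower with log2FC of -1.71, -1.21, -6.17 and -4.53. CXCL1, a chemokine for neutrophils, had 1623 to 471, 1373 to 608, 368 to 6 and 98 to 0 reads and log2FC of -2.21, -1.27, -5.53 and -7.20, at least 33.9-fold lower in COV318 OCSC. PDGFB, a growth factor of mesenchymal cells, and METRN, a neurotrophic secreted protein, completed this group, with a smallest change of -1.08 and -1.17.

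Transport and metabolism were represented by several lower genes. PIPOX, the peroxisomal oxidase of pipecolate and sarcosine in lysine breakdown, had 234 to 49, 1236 to 205, 91 to 28 and 60 to 2 reads and log2FC of -2.66, -2.68, -1.61 and -4.54, with a log2 interval of -8.04 to -3.05 in COV318 OCSC. It is the lower gene on the list of amino acid breakdown that also holds AADAT. ABCC3, an export pump for organic anions, had 476 to 78, 994 to 358, 56 to 3 and 119 to 2 reads and log2FC of -3.02, -1.56, -3.56 and -5.52, with log2 intervals of -6.51 to -2.57 and -9.01 to -4.06 in COV318. KCNJ5, an inwardly rectifying potassium channel, had 129 to 51, 111 to 40, 495 to 39 and 167 to 3 reads and log2FC of -1.75, -1.54, -3.58 and -5.56, with a log2 interval of -8.14 to -4.28 in COV318 OCSC. Another potassium channel, KCNH3, was lower as well, with a smallest change of -1.04.

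LRP2, the endocytic receptor megalin, and RBP4, the plasma carrier of retinol that megalin takes up in kidney, were both members. LRP2 had 382 to 150, 4072 to 996, 6878 to 2646 and 10768 to 1040 reads and log2FC of -1.77, -2.12, -1.35 and -3.43. RBP4 had 61 to 6, 2395 to 1016, 72 to 0 and 508 to 0 reads and log2FC of -3.59, -1.33, -5.31 and -9.56, at least 23.5-fold lower in COV318 bulk and at least 176-fold lower in COV318 OCSC. RBP4 was mostly an OCSC transcript in the controls of both lines, at 2395 against 61 reads in OVCAR3 and 508 against 72 in COV318. ASS1, the argininosuccinate synthase of arginine synthesis, had the highest read numbers of all members in OVCAR3, 13155 to 6981, 32759 to 13733, 12268 to 2686 and 3735 to 1026, and log2FC of -1.34, -1.35, -2.16 and -1.92. Other lower genes of metabolism and glycan modification were HKDC1, a hexokinase domain protein, HS6ST1 and CHST1, both sulfotransferases of glycans, and ST6GALNAC2, a sialyltransferase.

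The remaining lower genes of known role were JAK1, the kinase of cytokine receptors, RAP1GAP, which switches off the small GTPase RAP1, GPRC5B and NPFFR1, G protein-coupled receptors, BICC1, an RNA-binding protein, CDR2L, a cerebellar degeneration-related protein, MYOF, the membrane repair protein myoferlin, and SIK1B. SIK1B is a near-identical copy of the kinase gene SIK1, so its reads cannot be assigned with certainty. JAK1 had 3840 to 2418, 5737 to 2799, 16096 to 6280 and 6208 to 2330 reads and log2FC of -1.09, -1.13, -1.33 and -1.47, the narrowest spread among the well-read lower genes named here. MYOF had 3566 to 2259, 13081 to 6956, 8561 to 193 and 4238 to 240 reads and log2FC of -1.08, -1.01, -5.43 and -4.19.

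Non-coding members that were lower were LINC02806, LOC105370109, NRAD1 and DLGAP1-AS2, and LOC105372707, without a position in the annotation used, was lower too. LINC02806 had 571 to 47, 75 to 18, 276 to 25 and 107 to 2 reads and log2FC of -4.00, -2.08, -3.34 and -5.37, with a log2 interval of -8.86 to -3.91 in COV318 OCSC, and its exons overlap LINC01138 on the opposite strand. LOC105370109 had 106 to 7, 470 to 162, 748 to 0 and 332 to 0 reads and log2FC of -4.18, -1.62, -8.66 and -8.95, at least 244-fold and 115-fold lower in COV318 bulk and OCSC. NRAD1 had 207 to 64, 287 to 105, 263 to 2 and 92 to 0 reads and log2FC of -2.10, -1.53, -6.09 and -7.11, with a log2 interval of -10.06 to -5.14 in COV318 bulk and at least 31.8-fold lower in COV318 OCSC. Both were at 7 reads or more in OVCAR3-MGPKO and at 2 or fewer in COV318-MGP. DLGAP1-AS2, an antisense transcript, had 216 to 68, 70 to 26, 452 to 8 and 73 to 23 reads and log2FC of -2.08, -1.48, -5.50 and -1.69.

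The smallest changes lay close to the limit of 1 in size. The nearest members inside it were JDP2 at 1.0001 in COV318 bulk, MYOF at 1.0055 and LOC105372707 at 1.0082, the latter both in OVCAR3 OCSC and all lower. The nearest genes outside it were PRDX2 at 0.998, EPDR1 at 0.9941 and HSPA4L at 0.9872, all higher with OVCAR3 OCSC as the limiting comparison. Larger limits left 29 higher and 13 lower genes at 1.5 and 21 and 4 genes at 2.

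The depth behind the members differed by direction. The higher members had a median raw count of 16, 39, 25 and 8 in OVCAR3-CTR bulk, OVCAR3-CTR OCSC, COV318-CTR bulk and COV318-CTR OCSC, and of 118.5, 174.5, 894.5 and 290.0 in the manipulated libraries of the same order. The lower members had medians of 1006.5, 1538.0, 732.0 and 294.5 in the controls and of 343.5, 626.5, 41.5 and 20.0 in the manipulated libraries. Over all 11170 genes the medians were 479.5 to 1413.0 counts. A higher member can meet the count limit through its manipulated libraries and must be lower in each control. The low control counts thus follow in part from the rule and are no result about the members. In at least 1 library, 27 of the higher and 13 of the lower genes had 3 counts or fewer. At least 50 counts in all 8 libraries were found for 18 members, of which 4 were higher (TUBA1A, DTNA, DYNLT3 and PABPC4L) and 14 lower. In OVCAR3 the lower genes rest on more reads than the higher ones in both control and knock-out, whereas in COV318-MGP the higher genes hold more.

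Levels can be compared between members per kilobase of exon, which 95 members have in GENCODE 44. ASS1 had the highest normalized count per kilobase among them in the 4 OVCAR3 and the 2 COV318-CTR libraries, 6720 in OVCAR3-CTR bulk, 10100 in OVCAR3-CTR OCSC, 2190 in COV318-CTR bulk and 1840 in COV318-CTR OCSC. In the COV318-MGP libraries it stood at 489 and 487, behind TUBA1A at 889 and 682 and TIMP1 at 573 and 1830. In OVCAR3-MGPKO ASS1 still led at 2660 and 3980. The rule itself favours lower members in the controls and higher members in the manipulated libraries, so nothing is drawn from this order.

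The culture of the cells was not used in the selection, although the comparison of OCSC with bulk uses the same libraries. In OVCAR3-CTR, 10.2% of all genes were higher in OCSC than in bulk and 5.84% were lower. Of the 60 higher members, 20 (33.3%) were higher in OCSC there and 7 (11.7%) lower, with a median log2FC of 0.66 against 0.10 for all genes. Of the 40 lower members, 8 were higher and 6 lower. In COV318-CTR, 5.13% of all genes were higher and 5.77% lower in OCSC, and the numbers were 9 and 12 of the higher members and 9 and 7 of the lower. In OVCAR3-MGPKO, 4.23% of all genes were higher and 3.21% lower in OCSC, against 10 and 8 of the higher members and 11 and 6 of the lower. In COV318-MGP, 6.37% of all genes were higher and 4.51% lower, against 2 (3.33%) and 4 (6.67%) of the higher members, which is near the share of all genes, and 5 and 8 of the lower. The higher members had median counts of 8 to 39 in the controls, against 479.5 to 1413 for all genes, and no difference between members and all genes is drawn from the counts in the controls.

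Single members differed in how far this held across the lines. The log2FC of OCSC against bulk was 2.69 in OVCAR3-CTR, 2.33 in OVCAR3-MGPKO, 2.11 in COV318-CTR and 0.03 in COV318-MGP for LRP2. CHST1 had values of 5.05, 7.19, 1.29 and 0.44 in the same order, and EPHA3 had 4.81, 3.46, 0.00 and -1.77. FOS was lower in OCSC in the first 3, at -2.35, -1.72 and -1.495, and higher in COV318-MGP, at 4.52. SLC6A15 was lower in OCSC in all 4, at -1.96, -1.43, -3.91 and -1.72. MYOF was higher in all 4, at 1.15, 1.23, 0.45 and 1.69.

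**Figure D4:**
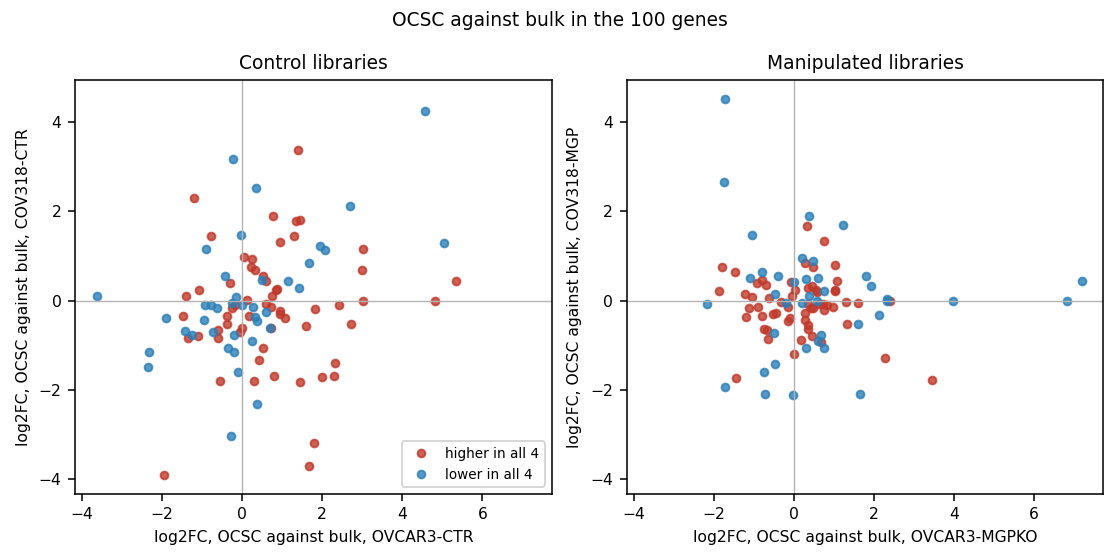
Log2FC of OCSC against bulk in OVCAR3 (horizontal) and in COV318 (vertical) for the 100 genes, in the control libraries (left) and the manipulated libraries (right). Red points are the 60 higher and blue points the 40 lower genes, and FOS stands at -1.72 and 4.52 in the right panel.

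The control lines themselves differed in many genes. In bulk, 19.4% of all genes were higher in COV318-CTR than in OVCAR3-CTR and 22.2% were lower, and in OCSC 15.9% were higher and 25.7% lower. Among the lower members, 2 were higher and 22 (55.0%) lower in COV318-CTR in bulk, and 5 and 27 (67.5%) in OCSC. Among the higher members, 16 were higher and 28 (46.7%) lower in bulk, and 8 and 37 (61.7%) in OCSC. Members of both directions were therefore more often lower in the COV318 control than in the OVCAR3 control, with medians of -0.80 and -1.21 in bulk and -1.69 and -1.66 in OCSC. These values share the control libraries with the selection and were not tested.

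Of the gene lists written for these cells, 3 held a member. Over all genes, 0.537% were higher and 0.358% lower members, so that in lists of 3 to 20 genes a count of 0 is no result about a list. The list of tryptophan and lysine breakdown had 10 genes with enough counts, of which AADAT was higher and PIPOX lower in all 4 comparisons. AASS, the first enzyme of lysine breakdown, had log2FC of 0.66 and 0.80 in OVCAR3 bulk and OCSC, from 13 to 28 and from 13 to 25 reads, and of 5.38 and 5.32 in COV318, and was no member. KYAT3, another kynurenine aminotransferase, had log2FC of -0.24, 0.07, -0.04 and -0.62. On this list 1 gene was higher and 1 lower in each OVCAR3 culture, 2 and 2 in COV318 bulk and 3 and 2 in COV318 OCSC, with medians of 0.20, -0.02, -0.03 and -0.16.

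Of the 9 immediate early genes with enough counts, FOS was the member, and 0 to 3 were higher and 1 to 8 lower in the 4 comparisons. FOSB had log2FC of -2.53, -0.06, -7.27 and -1.47, so that OVCAR3 OCSC kept it out. Of 7 genes of the list of EMT and matrix, ITGB3 was the member. The lists of the amino acid response (15 genes with enough counts), hypoxia and glycolysis (13), p53 targets (13), interferon response and antigen presentation (16), sterol and fatty acid synthesis (12), cell cycle (20), metallothioneins (3) and the Hedgehog pathway (8) held 0 members. Among the interferon and antigen genes, 10 were higher and 0 lower in OVCAR3 bulk while all 16 were lower in both COV318 cultures.

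A RefSeq position was found for 97 members. Protein-coding genes were 57 of 59 placed higher members and 34 of 38 placed lower members, against 94.6% of all placed genes. The X chromosome held 9 of the 59 higher members (AP1S2, XK, DYNLT3, TIMP1, RAB9B, SLC25A53, ZCCHC18, FIRRE and MPP1) and 0 of the 38 lower ones, and 3.3% of all genes with enough counts lie on it. In OVCAR3 bulk, OVCAR3 OCSC, COV318 bulk and COV318 OCSC, 9.81%, 5.18%, 33.0% and 40.9% of X genes were higher. The shares of all genes were 7.28%, 2.53%, 16.3% and 20.6%. The X shares include the 9 members, which were chosen on the same log2FC, so they are no separate result. The X share was the largest in OVCAR3 OCSC and COV318 bulk. Chromosome 4 passed it in OVCAR3 bulk, at 13.5%, and chromosome 22 in COV318 OCSC, at 42.0%. Shares of lower genes also varied by chromosome. In COV318 bulk, 47.9% of chromosome 20 genes and 7.81% of chromosome 22 genes were lower, against 19.7% of all genes. In COV318 OCSC the shares were 47.9%, 6.69% and 20.2% in the same order. No test was made of these differences.

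Members lay within 1000000 bases of each other in 11 pairs, 10 of them in 1 direction. The matching number for all genes with enough counts was not computed, so the pairs are a description only. CRIP1 and CRIP2 lie 6715 bases apart on chromosome 14, and FOS and JDP2 144712 bases apart on the same chromosome. MYOF and RBP4 are neighbours on chromosome 10 and HKDC1 and NPFFR1 lie 979776 bases apart there, all lower. Among the higher genes, DTNA and MAPRE2 lie 85182 bases apart on chromosome 18, SLC6A15 and ALX1 367420 bases apart on chromosome 12, and XK and DYNLT3 106705 bases apart on X. RAB9B, SLC25A53 and ZCCHC18 form the other pairs on X, where ZCCHC18 lies within the span of SLC25A53 on the opposite strand, with no overlap of their exons in GENCODE 44. The exception was TUBA1A, which was higher, and KCNH3, lower, 349949 bases apart. Exons of 32 members overlap a gene on the opposite strand and those of 13 a gene on the same strand, and their counts are uncertain to that extent. The share of all genes with such overlaps was not computed, so the members cannot be compared with it.

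By span, the higher members were longer than all genes with enough counts. Their median span was 57796 bases and 23 of 59 (39.0%) spanned over 100000 bases, against 5 of 38 (13.2%) of the lower members and 19.3% of all genes, whose median was 32275. Exon length differed less, with medians of 6315, 4666 and 5682 bases in the higher, the lower and all genes. These differences were not tested, and the sets were not matched for expression. In the controls the higher members had median counts of 8 to 39, against 479.5 to 1413.0 for all genes.

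RefSeq promoters were available for 75 members, 49 higher and 26 lower. Their median GC content of 64.3% and 65.8% was near the 65.7% of all tested genes. The ratio of observed to expected CpG was lower in both sets, with medians of 0.746 and 0.662 against 0.854, and it was under 0.6 in 26.5% of the higher and 34.6% of the lower members, against 13.3% of all. Here too the sets were not matched for expression and no test was made. In all, 10 short motifs were searched on both strands, none of which contains another. The GC box GGGCGG was in 75.5% of higher, 53.8% of lower and 71.8% of all tested promoters, and in 45.0% of the 35116 promoters of the table. CCAAT was in 18.4%, 23.1%, 37.6% and 34.6%. TATAAA was in 6.12%, 15.4%, 5.17% and 11.5%, the E-box CACCTG in 26.5%, 11.5%, 17.6% and 20.6%, and ACGTG in 26.5%, 19.2%, 27.3% and 21.4%. The cAMP response element TGACGTCA was in 2 higher promoters (MAPRE2 and DAAM2) and the C/EBP-ATF element TGATGCAA in 2 lower ones (LINC02806 and RBP4), against 3.44% and 0.439% of tested promoters and 1.85% and 0.866% of the table. The AP-1 site TGACTCA was found in DLGAP1-AS2 and the octamer ATTTGCAT in PIPOX, against 2.59% and 1.43% of tested and 4.95% and 1.77% of all promoters, and GACCACCCA, a site of GLI factors, in no member against 0.23% and 0.236%. A match is a description of the sequence and says nothing of binding.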

How the data were processed

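RNA-seq of 8 libraries, 1 per condition, was analysed, with groups taken from the sample labels. The authors sequenced paired reads of 50 nt, aligned them to hg38 with STAR (2.7.5c per the submitters' processing notes) and deposited raw counts of reads per gene. Of the library kits named, the one used for these libraries, the annotation and the strand setting are not given in the sources used here. The authors also deposited a normalized signal, the count over a size factor from DESeq2's median of ratios, and size factors recomputed over the 15518 genes read in every library gave the same values, with 0 differing by over 1 in 1000000.

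From the counts, log2FC were computed on normalized count + 1, with exact Clopper-Pearson intervals of 95% on each ratio of 2 counts. Counts of 3 were the floor, a CPM of 0.0802 to 0.244. Depth was 12294591 to 37393919 counts. The members, the gene lists and the rule for named genes (the first 15 of each direction by smallest log2FC, AADAT, list members and the 3 genes on each side of the limit) were chosen with earlier results of these data known. The lists were written from memory. No test, p-value or authors' comparison was used, and 2 genes, 1 of them a member that enters the counts alone, are not reported here. Positions and promoters came from RefSeq (GRCh38.p14) and exons from GENCODE 44. Tools were Python 3.11.15 (numpy 2.4.6, pandas 2.3.3, scipy 1.17.1, matplotlib 3.10.9), and edgeR 4.0.16 (R 4.3.3) gave the TMM factors. Alternatives were 4 other scalings, pseudocounts of 0.5, 5 and 10, count limits, larger log2FC limits and an interval that excludes no change.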

Additional observations from a re-analysis of the deposited data

How the results depend on the processing

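No paired analysis was possible because each condition has 1 library, and for the same reason no replicate could be left out. The limits on counts and on log2FC moved most of the numbers. Genes higher and lower in all 4 comparisons were 255 and 104 with no minimum, 145 and 58 with 10 counts, 30 and 25 with 100, and 4 and 14 with 50 counts in every library. A log2FC limit of 1.5 left 29 and 13, and a limit of 2 left 21 and 4. Scaling to the library total gave 73 and 25 and moved the median of all genes by up to 0.296, with all 60 higher and 25 of the 40 lower members kept. TMM gave 65 and 35, the median of ratios within pairs 63 and 37, and pseudocounts of 5 and 10 gave 56 and 38 and 48 and 37. By the log2FC of OVCAR3 alone, 219 genes moved alike in both cultures. The number was 1116 with no minimum, 494 with 10 counts, 122 with 100, 61 with 50 in every library, 87 at 1.5 and 46 at 2. In COV318 alone it was 2745, against 7359 with no minimum, 1544 with 50 in every library, 1687 at 1.5 and 1204 at 2. Apart from the fewer or more genes that each limit admits, the cause was not tested. Of 217 recomputed smallest log2FC of the genes given in full, 208 moved by less than the counting interval and 9 moved further, among them PTPRD to 4.04 and SLC6A15 to 4.25 with a pseudocount of 10 and FLG to -2.25 with counts scaled to the library total, and 0 changed sign. Depth limits the higher members, since 27 of 60 had 3 counts or fewer in a library.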
